A study of Mus musculus with 45 samples.

Results

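The response described here is that of Dppa4 knockout mouse embryonic stem cells (mESCs) to UNC0638, measured by polyA RNA-seq in 6 of the 45 samples of the series. The members were taken from the sample labels: 3 knockout libraries treated with UNC0638 and 3 treated with its solvent DMSO, all for 48 h. The knockout line (DPPA4KO, called KO below) had been depleted of DPPA4 with CRISPR/Cas9, and its comparison line was the J1 wild type (WTJ1, called WT), for which 3 DMSO and 3 UNC0638 libraries of the same experiment were available. Per the study's methods 3 clonal lines were used for WT and KO, and mESCs were grown with FBS and LIF. The mESCs were kept on mitomycin C-treated mouse embryonic fibroblasts, so a library can hold fibroblast RNA. The question was which part of the response to EHMT inhibition takes place without DPPA4. The labels do not say whether equal replicate numbers mark the same clone.

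UNC0638 blocks the catalytic site of the paired histone methyltransferases EHMT1 and EHMT2, which place mono- and dimethylation on lysine 9 of histone H3, a mark of silent chromatin. DPPA4 acts as a heterodimer with DPPA2 and is needed for transcription of genes of zygotic genome activation, among them Dux and, through it, the Zscan4 cluster and the MERVL retrovirus. A small share of mESCs in culture enters this 2-cell-like state (2CLC), and EHMT2 is known as one of its repressors. EHMT1/2 also silence germline genes in pluripotent cells.

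The labels held. Dppa4 had 0 reads in each of the 6 KO libraries, against 700.4 to 920.5 normalized counts in the WT DMSO libraries. Dppa2, the partner, was at 1008, 1214 and 1223 normalized counts in KO DMSO and at 737, 722 and 953 in KO UNC0638, a log2 difference of -0.52 (SE 0.16) that did not pass the threshold (limma adjusted p = 0.132). The inhibitor's targets, which it blocks as proteins, did not pass either, with a log2 difference of -0.20 (SE 0.20) for Ehmt1 and -0.23 (SE 0.24) for Ehmt2. The 6 mESC markers (Pou5f1, Sox2, Nanog, Zfp42, Esrrb and Dppa5a) summed to 56054 to 57565 normalized counts in KO DMSO and 49536 to 54884 in KO UNC0638.

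The 6 KO libraries held 8845273 to 12710949 reads on genes. A normalized count is the read count divided by the library's size factor, and every value quoted below is on that scale. The 3 UNC0638 libraries of KO differed from each other in several ways. The third carried fewer reads of long transcripts: genes with a longest transcript of 8000 bases or more had a median log2 deviation from the 12-library mean of -0.65 and genes under 1000 bases one of 0.35. The long-minus-short value was -0.05 to 0.36 in the other 5 KO libraries. Reads on repeats made up 2.41% of the gene and repeat reads of the third UNC0638 library, against 2.91% to 5.24% in the other 5 KO libraries. The second was the highest of the 3 UNC0638 libraries for 36 of the 71 genes called higher (50.7%), against 29.3% of all genes tested. The first was the highest for 6 (8.45% against 32.9%) and the third for 29 (40.8% against 37.8%). These libraries took part in the choice of the 71 genes. The 24 fibroblast markers summed to 9784 to 12460 in KO DMSO and 10286 to 13316 in KO UNC0638, ranges that overlap, and to 14044 to 22450 in the WT libraries; none of the 21 tested was called, and Lum was at 0 in every KO library. Of the sets of markers for primitive endoderm, trophoblast, neural and mesodermal cells, none had a member called. The 4 trophoblast markers summed to 6.96 to 13.7 in KO DMSO and 0 to 5.52 in KO UNC0638, and their part in the results was not tested.

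UNC0638 raised 71 genes and lowered 9 in KO mESCs among 17258 genes tested, which is 0.411% of the genes called higher and 0.0521% called lower (limma, Benjamini-Hochberg adjusted p under 0.05 and a log2 difference of at least 1 on the log2(normalized count + 1) scale). By list, 3 of 13 oocyte and maternal-effect genes tested (Nlrp14, Nlrp4f and Crxos), 4 of 20 cancer-testis genes of the X chromosome (Rhox5, Nxf3, Xlr3a and Fthl17c) and 1 of 7 PRAME-like genes (Pramel6) were called higher. Of 34 genes of the germline and meiosis list none was called higher and 1, Majin, was called lower. At an unadjusted p under 0.05 (limma) 7 of the 34 were higher and 1 lower, against 1458 and 1206 of all 17258 genes. Krt13, Snap91, Myh6, Myh3, C8b and Tex19.2, which are on none of these lists, rose as well. Of the 2-cell list none of the 21 genes tested was called, and 24 of the 28 listed had no read in any of the 6 KO libraries; Crxos, Fthl17c and Pramel6 are themselves in the study's classes of genes higher in 2-cell-like cells. The 71 genes were mostly weakly transcribed in KO DMSO, with a median of 7.61 normalized counts, and had a median of 68.1 with UNC0638. In WT their medians were 42.7 with DMSO and 96.8 with UNC0638. The KO DMSO mean was below the WT DMSO mean for 68 of the 71 (95.8%), against 52.3% of all genes tested. With UNC0638 the KO mean was above the WT mean for 29 (40.8% against 50.0%). The KO DMSO values took part in the choice of these genes. Of the 71 genes 58 were annotated as protein-coding (81.7%, against 79.9% of all genes tested). A further 8 were processed pseudogenes (11.3% against 7.96%) and 4 were lincRNAs (5.63% against 2.20%). All 71 had 3 UNC0638 libraries above the 3 DMSO libraries, as did 8.88% of all genes tested, and all 9 called lower had no overlap in the other direction, against 8.03%.

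The counts depended on single libraries, on the tool and on the WT libraries that share the estimate of spread. With the 6 KO libraries fitted alone, limma called 0 genes higher and 0 lower. Without the second KO UNC0638 library 2 genes were called higher and 0 lower, without the third 28 and 3, and without the first 203 and 162. Leaving out each of the 3 KO DMSO libraries in turn gave 20, 43 and 63 higher and 0, 0 and 4 lower, and leaving out each of the 3 WT UNC0638 libraries gave 22, 22 and 23 higher and 3, 3 and 0 lower. The quasi-likelihood test of edgeR called 32 higher and 5 lower and DESeq2 called 241 and 44, each on the recovered reads, and all 71 had the same direction with either tool.

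Pramel6, a PRAME-like gene expressed in the early embryo (chr2:87506565-87510872, plus strand, GRCm38), had the highest fitted difference. It had 0 reads in the 3 KO DMSO libraries and 21.2, 109 and 28.8 normalized counts with UNC0638, so it was at least 50.5-fold higher against a floor of 3 reads over the DMSO group (limma adjusted p = 0.0180). Its WT libraries stood at 6.98, 0 and 0 with DMSO and 46.7, 38.3 and 21.6 with UNC0638. The groups did not overlap in either line.

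Nlrp14, an oocyte NLR gene needed for development of the early embryo (chr7:107166990-107198102, plus strand), had 0 reads in KO DMSO and 20.2, 57.0 and 20.1 normalized counts in KO UNC0638. This was at least 31.0-fold higher by the same floor (limma adjusted p = 0.00185). In WT it rested on a higher base, at 14.0, 14.8 and 6.12 with DMSO, and reached 93.3, 65.4 and 100.6 with UNC0638. The UNC0638 level in KO was therefore below that in WT in every library. Nlrp4f, another oocyte gene of this family (chr13:65177111-65205977, minus strand), stood at 12.7, 4.08 and 22.1 in KO DMSO and at 90.1, 140 and 73.3 in KO UNC0638, a log2 difference of 3.07 (SE 0.53, limma adjusted p = 0.0232). Its WT log2 difference was 2.69 (SE 0.53).

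Crxos, a homeobox gene of the Crx locus with several homeodomains (chr7:15882617-15904020, plus strand), was the member whose fitted response was nearest to equal in the 2 lines among these oocyte genes. Its KO libraries stood at 11.7, 21.4 and 10.4 with DMSO and 109, 126 and 141 with UNC0638. The log2 difference was 3.08 in KO (SE 0.46, limma adjusted p = 0.0124) and 2.99 in WT (SE 0.46), and the difference between the lines was 0.09 with a 95% interval from -1.30 to 1.48. Of the 38 oocyte and maternal-effect genes on the list, 13 were tested and these 3, Nlrp14, Nlrp4f and Crxos, were called higher, beside 0.411% of all genes; none was called lower. Leaving out 1 library gave 1 call without the second KO UNC0638 library, 2 without the first or the second KO DMSO library and 3 or 4 otherwise. The median over the 13 was a log2 difference of -0.07 and took either sign with 1 library left out, from -0.34 without the third KO UNC0638 library to 0.41 without the first. Ooep, of the maternal complex of the egg cortex, stood at 657, 595 and 604 in KO DMSO and 538, 416 and 634 in KO UNC0638, so its groups overlapped.

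Krt13, a type I keratin of stratified epithelia (chr11:100117327-100121566, minus strand), gave the lowest adjusted p. It rose from 1.96, 4.08 and 3.48 normalized counts in KO DMSO to 88.3, 99.98 and 91.7 in KO UNC0638, a log2 difference of 4.53 (SE 0.42, limma adjusted p = 0.000107). In WT the libraries stood at 20.9, 18.5 and 13.1 with DMSO and at 59.0, 38.3 and 55.1 with UNC0638. Krt13 was thus below WT in each KO DMSO library and above every WT library with UNC0638. Its KO minus WT difference of 3.05 (95% interval 1.80 to 4.29) had the widest distance from 0 relative to its error among the 17258 genes tested, and did not pass the adjustment over all genes (limma adjusted p = 0.775).

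Snap91, a clathrin adaptor of synaptic vesicles, had 3 reads in all in KO DMSO and stood at 35.0, 68.8 and 36.7 normalized counts in KO UNC0638. The ratio was 43.5, with an exact 95% interval from 14.6 to 213 that covers counting error only (limma adjusted p = 0.00828). Prss42, a serine protease of the testis, was at 2.94, 18.3 and 0 in KO DMSO and at 91.1, 169 and 30.6 in KO UNC0638, a log2 difference of 4.22 (SE 0.81, limma adjusted p = 0.0362), while its WT values of 40.7, 55.4 and 49.0 with DMSO and 44.9, 30.8 and 76.6 with UNC0638 overlapped. Ripor2 had 0 reads in KO DMSO and 18.4, 47.3 and 4.37 with UNC0638, at least 22.3-fold higher.

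The promoters of Snap91, Krt13, Prss42 and Ripor2, the first genes by size of response with a RefSeq entry and no multi-copy family, show how unlike each other the starts of these genes are. They hold 35, 2, 12 and 10 CpG dinucleotides. The motifs searched, on both strands, were the E-box CACGTG, the E2F6-like GGCGGGAA and the sterol element TCACNCCAC, which occur in 7.24%, 2.24% and 1.22% of all 27025 RefSeq promoter windows of 300 bases. Capitals mark the only match, an E-box in Prss42. A promoter entry was found for 47 of the 71 genes, too few for a comparison of the group with other promoters, which is void at this share of matches and is not given. Sequences are from RefSeq, GRCm38.p6, 5′ to 3′ on the strand of the gene.
Snap91 promoter, chr9:86880659-86880958, minus strand: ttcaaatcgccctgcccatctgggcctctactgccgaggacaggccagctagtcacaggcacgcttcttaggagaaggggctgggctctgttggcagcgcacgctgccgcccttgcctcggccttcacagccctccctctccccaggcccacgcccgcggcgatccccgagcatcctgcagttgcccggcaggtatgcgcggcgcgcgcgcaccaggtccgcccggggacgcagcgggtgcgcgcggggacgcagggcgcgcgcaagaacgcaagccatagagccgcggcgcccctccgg
Krt13 promoter, chr11:100121517-100121816, minus strand: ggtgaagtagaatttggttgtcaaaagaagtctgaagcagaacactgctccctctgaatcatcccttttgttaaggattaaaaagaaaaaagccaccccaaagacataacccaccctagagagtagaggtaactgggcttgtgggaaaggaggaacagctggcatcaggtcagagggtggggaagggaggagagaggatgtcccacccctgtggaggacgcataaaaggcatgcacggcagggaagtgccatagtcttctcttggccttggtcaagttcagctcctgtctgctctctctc
Prss42 promoter, chr9:110797935-110798234, plus strand: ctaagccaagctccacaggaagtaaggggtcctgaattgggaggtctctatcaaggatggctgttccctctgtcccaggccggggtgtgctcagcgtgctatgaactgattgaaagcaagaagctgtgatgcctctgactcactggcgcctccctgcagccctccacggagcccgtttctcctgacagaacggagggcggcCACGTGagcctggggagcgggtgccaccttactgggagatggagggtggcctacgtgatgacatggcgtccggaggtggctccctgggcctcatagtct
Ripor2 promoter, chr13:24581939-24582238, plus strand: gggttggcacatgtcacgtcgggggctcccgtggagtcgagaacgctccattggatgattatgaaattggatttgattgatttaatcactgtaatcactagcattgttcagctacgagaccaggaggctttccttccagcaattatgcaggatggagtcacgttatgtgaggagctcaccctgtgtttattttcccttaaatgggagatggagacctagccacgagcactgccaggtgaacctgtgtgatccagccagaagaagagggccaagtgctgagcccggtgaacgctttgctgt

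**Figure D1:**
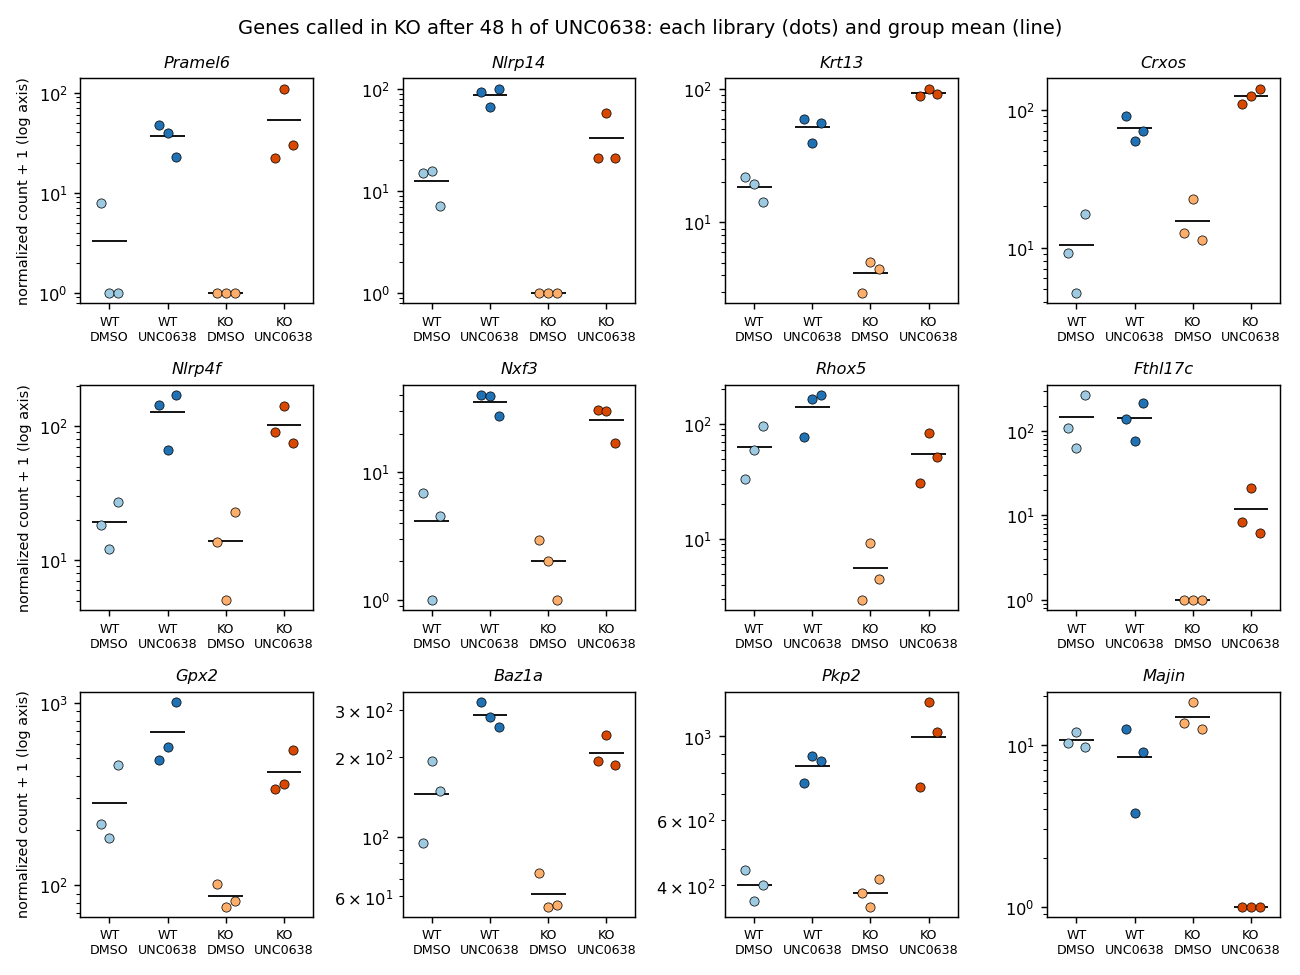
Normalized count plus 1 on a log axis for 12 genes called in KO, with 1 dot per library in WT DMSO, WT UNC0638, KO DMSO and KO UNC0638 and a line at the group mean. In each panel the 3 KO UNC0638 dots lie apart from the 3 KO DMSO dots, above them for 11 genes and below them for Majin; Crxos, Nlrp4f and Nxf3 are raised in WT as well, while Fthl17c is not.

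X-linked germline genes were a further group. Of 53 cancer-testis genes of the X chromosome on the list, 20 were tested, 4 were called higher (beside 0.411% of all genes) and none lower, with a median log2 difference of 1.58 over the 20 against 0.00 over all genes (1.497 with the 5 members at 0 in one group set at their bound). Without the second KO UNC0638 library none was called and the median was 1.19, without the third 2 were called, and without the first 6 were called with a median of 2.35. Leaving out each of the 3 KO DMSO libraries gave 0, 2 and 2 calls, and each of the 3 WT UNC0638 libraries 1, 2 and 2. Rhox5, a homeobox gene of the reproductive cluster (chrX:37804842-37808876, plus strand), stood at 1.96, 8.15 and 3.48 in KO DMSO and at 29.4, 82.8 and 50.6 in KO UNC0638, a log2 difference of 3.36 (SE 0.53, limma adjusted p = 0.0164). Nxf3, a germline member of the mRNA export factor family (chrX:136072099-136085255, minus strand), had 3 reads in KO DMSO and 29.4, 29.0 and 15.7 normalized counts with UNC0638, a ratio of 23.3 (exact 95% interval 7.66 to 115). Xlr3a, of a multi-copy lymphoid and germline family whose reads can be shared between copies, had 3 reads in KO DMSO and stood at 21.2, 29.0 and 20.1 with UNC0638, a ratio of 22.0 (exact 95% interval 7.25 to 109).

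Fthl17c, a ferritin heavy chain-like gene of early embryos and germ cells in a multi-copy cluster (chrX:8975710-8976559, minus strand), had 0 reads in KO DMSO and 7.36, 20.4 and 5.24 normalized counts in KO UNC0638, at least 10.5-fold higher. Its WT libraries stood far above this with either treatment, at 107, 61.5 and 264 with DMSO and 139, 74.7 and 217 with UNC0638. The KO minus WT difference was 3.25 (95% interval 1.43 to 5.08) and did not pass the adjustment over all genes (limma adjusted p = 0.775). On the X chromosome lay 8 of the 71 genes (11.3%), and 3.51% of all genes tested. The 8 became 0 without the second KO UNC0638 library, 3 without the third and 19 without the first; they became 1 and 4 without the first and the second KO DMSO library, and 1, 2 and 2 without each WT UNC0638 library.

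Over the 71 genes the fitted WT response was above 0 for 65, with a median log2 difference of 0.67 against 2.66 in KO. The KO values chose these genes, so their larger size in KO is a description. In WT the 3 UNC0638 libraries lay above the 3 DMSO libraries for 37 of the 71 (52.1%), against 9.86% of all genes tested. No gene passed the threshold in WT itself (0% called higher and 0% lower, with 1504 at an unadjusted p under 0.05), nor with edgeR, and DESeq2 called 13 higher and 1 lower there. For the difference of the 2 responses, KO minus WT, no gene was called either (0% in each direction, limma; 1076 at an unadjusted p under 0.05), nor with edgeR or DESeq2. The median standard error of that difference was 0.43 on the log2 scale. Without the third WT UNC0638 library 1 gene was called with a lower response in KO.

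The genes called higher were mostly higher, too, in other experiments of the series, in which EHMT2 was removed with a degron (dTAG) in other mESCs. By the authors' group means, 60 of the 70 measurable genes called higher were above DMSO after 7 d of dTAG (85.7%), against 50.8% of all genes tested, and 24 were at least 2-fold above (34.3% against 5.36%). After 24 h of dTAG 54 of 70 were higher (77.1% against 50.1%). In sorted cells with DMSO, in which EHMT2 was not removed, 42 of 70 were higher in 2CLCs than in mESCs (60.0% against 44.4%). Nxf3, for example, had authors' means of 9.26 and 233 with DMSO and dTAG at 7 d, and Pramel6 had 1.05 and 67.6.

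The study sorted the genes that responded to dTAG at 7 d into classes. The first label, by the study's description, gives whether they were higher in 2CLCs or in mESCs (ESC). The second gives whether they lay in a domain repressed by EHMT2 as a block, named ECORD. These classes rest on other libraries than those compared here. Of the class 2CLC ECORD 78 of 227 genes were tested, and 3 (Gm9732, Fthl17c and Crxos) were called higher, beside 0.411% of all genes. The median log2 difference was 0.00 in KO and 2.01 in WT. In KO 53 of the 78 had no read in any library, which sets that median at 0. The fitted KO difference was above 0 for 16 genes. At an unadjusted p under 0.05 (limma) 7 were higher and 0 lower. The class summed to 198, 227 and 298 normalized counts in KO DMSO and 612, 1120 and 585 in KO UNC0638. Of the class 2CLC Non-ECORD UP 146 of 263 were tested and 2 (Pramel6 and Pdha2) were called higher, with medians of 0.51 in KO and 1.05 in WT. Leaving out 1 library gave 0 to 3 calls in the first of these classes and 0 to 7 in the other, both at 0 without the second KO UNC0638 library and at 3 and 7 without the first. Of ESC Non-ECORD UP 262 of 378 were tested and 14 were called higher (beside 0.411% of all genes), with medians of 0.52 in KO and 0.43 in WT. Of ESC ECORD 14 of 44 were tested and none was called, with 6 at an unadjusted p under 0.05 and all 6 higher, and medians of 1.38 and 0.90.

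The 14 called genes of ESC Non-ECORD UP held Nlrp14, Krt13, Nxf3, Rhox5, Myh6, Myh3, C8b, Defb42, Slc5a4b, Ube2dnl1, Maml2, D730003K21Rik, Gm47518 and 9530053A07Rik. Their products range from cardiac and embryonic myosin heavy chains (Myh6, Myh3) to a complement component (C8b), a defensin (Defb42) and a co-activator of Notch signalling (Maml2). The ESC label did not go with a higher authors' mean in sorted DMSO mESCs for each of these genes. Nlrp14 was at 16.9 in mESCs and 23.8 in 2CLCs and Myh3 at 6.24 and 15.4, while Krt13 was at 6.07 and 2.71. Maml2 stood at 13.7, 18.3 and 25.5 in KO DMSO and 64.4, 90.3 and 66.4 in KO UNC0638, a log2 difference of 1.91 (SE 0.40, limma adjusted p = 0.0398). Without the second KO UNC0638 library 2 were called, without the third 6 and without the first 22; the 3 KO DMSO libraries left out in turn gave 4, 8 and 9 and the 3 WT UNC0638 libraries 5 each; over the libraries left out in turn the median ran from 0.39 to 0.60. Genes that fell with dTAG, the class DMSO UP, had a median of -0.25 in KO and -0.22 in WT over 491 tested. Of these 3 were called lower, beside 0.0521% of all genes, and none higher. The KO median ran from -0.37 to -0.16 with 1 library left out.

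**Figure D2:**
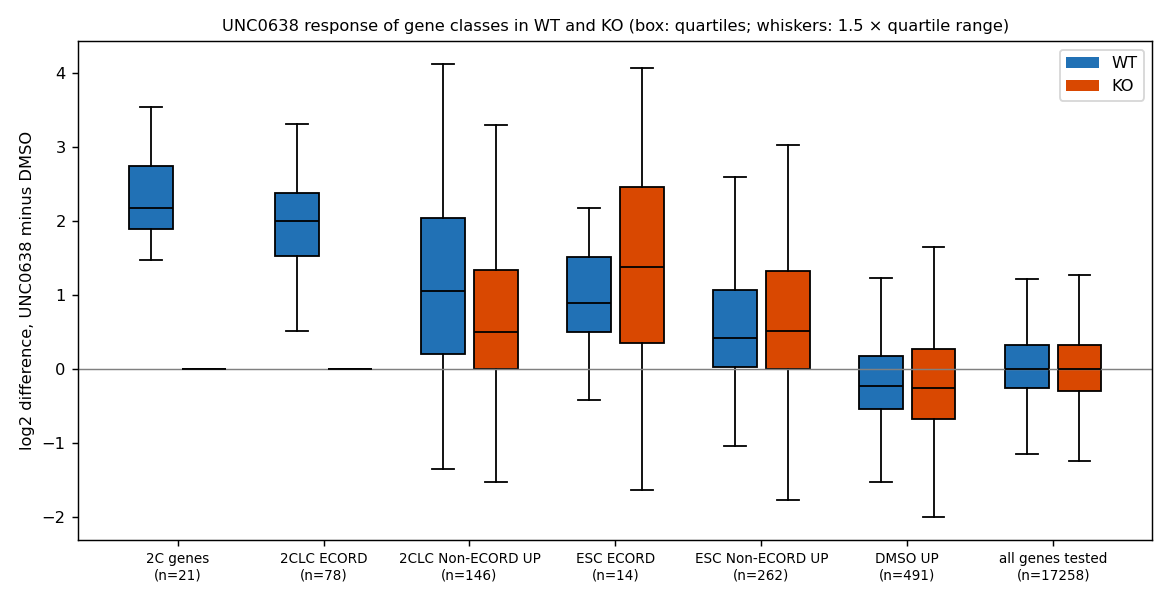
Log2 difference between UNC0638 and DMSO in WT and KO for the 2-cell genes, the authors' 5 classes of dTAG-responsive genes and all genes tested, as boxes from the lower to the upper quartile with a line at the median. The KO boxes of the 2C genes and 2CLC ECORD collapse onto 0, where genes without reads in KO lie, while their WT medians are 2.18 and 2.01; for ESC Non-ECORD UP the medians are 0.52 in KO and 0.43 in WT.

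The 2-cell genes themselves were nearly silent in KO under both treatments. Of the 28 on the list, 2 had a read in a KO DMSO library and 3 in a KO UNC0638 library, whereas 17 had reads in every WT library. Zscan4c, of the cluster that marks 2CLCs, had 0 reads in all 6 KO libraries, and stood at 31.4, 107 and 622 in WT DMSO and at 188, 221 and 1856 in WT UNC0638. Zscan4d and Duxf3 (Dux, the transcription factor upstream of the cluster) also had 0 reads in KO. A count of 0 allows up to 3 reads, which is a mean of 0.949 normalized counts over the KO UNC0638 group. The 7 2CLC markers summed to 0 in each KO DMSO library and to 0, 0 and 3.49 in KO UNC0638, where all reads were of Usp17la in the third library. In WT the sums ran from 52.4 to 933 with DMSO and from 400 to 3568 with UNC0638. In bulk samples fewer cells in the 2-cell-like state and less RNA per cell cannot be told apart.

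MERVL-int, the internal part of the retrovirus transcribed in 2-cell embryos, was low but present in KO, unlike the genes. It stood at 952, 644 and 1006 in KO DMSO and at 1244, 1407 and 444 in KO UNC0638, so the groups overlapped, with a log2 difference of 0.11 (SE 0.53, limma adjusted p = 0.983). In WT it stood at 2199, 4355 and 12607 with DMSO and 14593, 12274 and 53609 with UNC0638. The KO minus WT difference was -1.99 (95% interval -3.53 to -0.45) and did not pass the adjustment over the repeat families (limma adjusted p = 0.776). Its promoter repeat MT2_Mm was at 217, 174 and 301 in KO DMSO and 269, 352 and 270 in KO UNC0638, again with overlap.

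**Figure D3:**
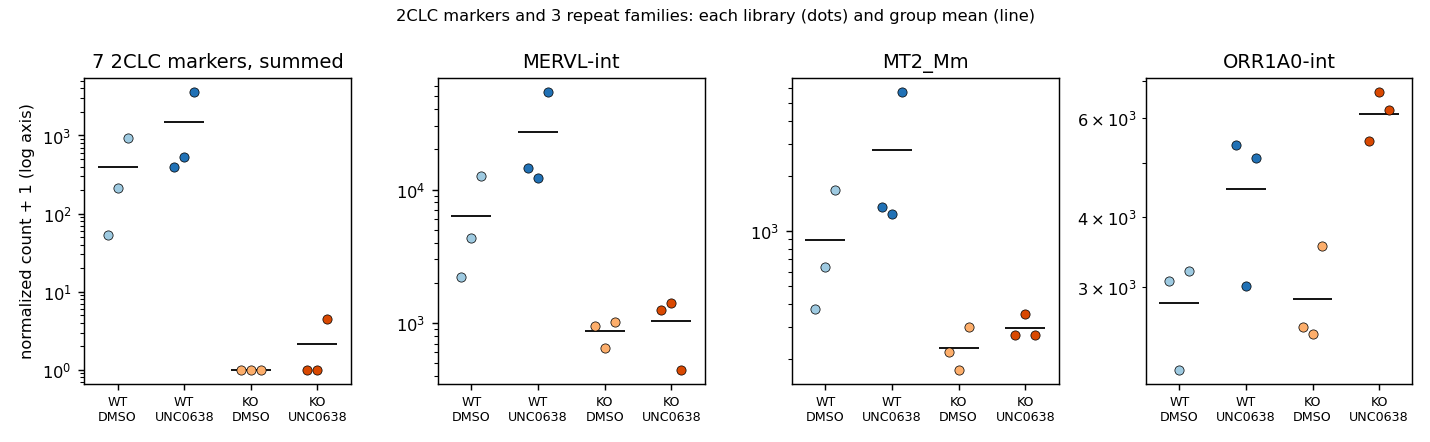
Normalized count plus 1 on a log axis for the sum of 7 2CLC markers and for the repeat families MERVL-int, MT2_Mm and ORR1A0-int, with 1 dot per library and a line at the group mean. The KO dots of the markers lie at 0 or, in 1 library, 3.49 normalized counts, those of MERVL-int lie below every WT library, and those of ORR1A0-int with UNC0638 lie above all other libraries.

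No repeat family was called in KO among 781 tested (0% higher and 0% lower, limma), with 41 at an unadjusted p under 0.05, 30 of them higher; edgeR called 0 as well and DESeq2 called 1 higher. The lowest p belonged to ORR1A0-int, the internal part of an ERVL-MaLR element. It stood at 2547, 2468 and 3547 in KO DMSO and at 5461, 6674 and 6196 in KO UNC0638, a log2 difference of 1.11 (SE 0.26, limma adjusted p = 0.245), beside 0.66 (SE 0.26) in WT. Its relative ORR1A1-int was at 562, 453 and 643 and then at 985, 1364 and 995, a log2 difference of 1.01 (SE 0.26, limma adjusted p = 0.296). For both, chosen here after their values were seen, the KO libraries of the 2 treatments did not overlap.

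Over all families the median log2 difference was 0.05 in KO and 0.43 in WT, and among 117 L1 families it was 0.01 and 0.57. In WT no family was called (0% in each direction, 86 at an unadjusted p under 0.05; 3 higher with the replicate number as a block), and the difference KO minus WT gave none (0% in each direction, limma; 42 at an unadjusted p under 0.05, and 0 calls with edgeR or DESeq2). L1Md_T, a young LINE-1, stood at 2306, 1626 and 4781 in KO DMSO and at 2414, 2872 and 2223 in KO UNC0638. L1Md_A was at 4178, 1266 and 8588 and then at 2775, 1857 and 2592, and IAPEz-int, a provirus of the IAP group, was at 14828, 10694 and 10327 and then at 13816, 14180 and 6177. All of these overlapped. The major satellite GSAT_MM had 3 reads in 1 KO DMSO library and 0 in the others.

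RLTR17B_Mm, a long terminal repeat of an endogenous retrovirus, had the widest range of any family tested over the 6 KO libraries. It stood at 875, 8335 and 151381 normalized counts in KO DMSO and at 11846, 76436 and 305 in KO UNC0638, and was higher than every other family in the third DMSO library. The groups overlapped. Its part in the repeat totals beyond these values was not tested.

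**Figure D4:**
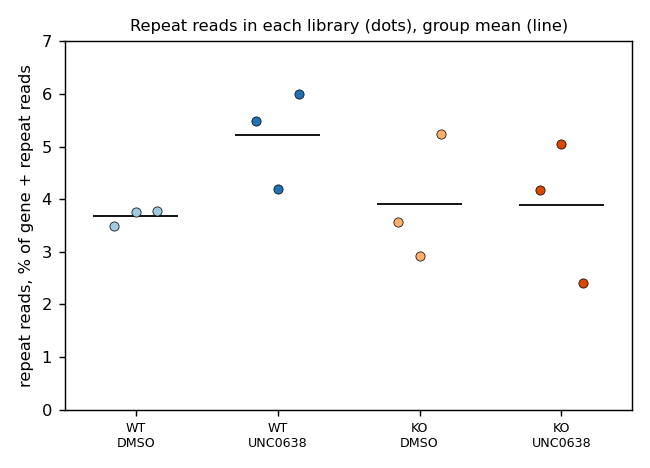
Reads on repeats as a percentage of gene plus repeat reads in each library (dots), with a line at the group mean. The KO DMSO libraries lie between 2.91% and 5.24% and the KO UNC0638 libraries between 2.41% and 5.05%, so they overlap; the 3 WT UNC0638 libraries lie between 4.20% and 5.99%, above the WT DMSO libraries.

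Some genes of ribosomal proteins, some of their pseudogenes and Srp9, named here after their values were seen, rose in KO by about the threshold. Over the 89 cytosolic ribosomal protein genes tested the median log2 difference was lower, at 0.25. Of the 89, 2 were called higher, beside 0.411% of all genes. Gm8430, a processed pseudogene of 471 bases, stood at 5280, 5110 and 6191 in KO DMSO and at 9257, 10411 and 14472 in KO UNC0638, a log2 difference of 1.02 (SE 0.17, limma adjusted p = 0.0211). Rps27a, which encodes a ubiquitin and ribosomal protein fusion, was at 154, 177 and 166 and then at 251, 368 and 428 (log2 difference 1.04, SE 0.21, limma adjusted p = 0.0398), and Rps27a-ps2, Rpl30-ps8, Rpl36a-ps1 and Rpl7 were called with it. Reads of ribosomal protein genes can be split between parents and near-identical pseudogenes, so their single values are uncertain. Srp9, of the signal recognition particle, stood at 472, 495 and 585 and then at 859, 1129 and 1350. The third UNC0638 library was the highest for each gene of this paragraph for which values are given.

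With all 3 UNC0638 libraries the median log2 difference in KO moved with transcript length. Without the third it was taken only for genes of 8000 bases or more and genes under 1000 bases, whose medians then lay closer together. The lengths between were not taken again. Over genes whose mean was 20 normalized counts or more, the median log2 difference in KO was 0.11 for the 664 genes whose longest transcript was under 500 bases and -0.20 for the 715 of 8000 bases or more, whereas in WT it was -0.14 and 0.30. Without the third KO UNC0638 library, the one low in long transcripts, the KO median was 0.05 for the 715 long genes. For the 1694 genes under 1000 bases it was 0.004 without that library and 0.11 with it. Of 90 cytosolic ribosomal protein genes, a list chosen after the values were seen, 89 were tested and 2 called higher, beside 0.411% of all genes. Their median was 0.25 in KO and -0.17 in WT. The KO median was 0.09 without the third UNC0638 library, and 0 to 6 were called with 1 library left out. Of the 71 genes called higher 16 (22.5%) had a longest transcript under 1000 bases, against 14.5% of all genes. The part of transcript length in these differences was otherwise not tested.

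**Figure D5:**
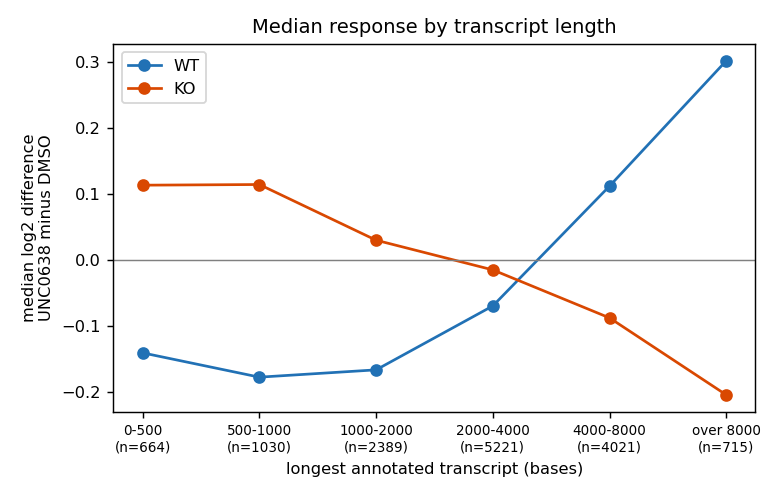
Median log2 difference between UNC0638 and DMSO in WT and KO for genes whose mean was 20 normalized counts or more, in 6 bins of their longest annotated transcript. The KO medians run from 0.11 in the shortest bin to -0.20 in the longest and the WT medians from -0.14 to 0.30, in opposite directions. Without the third KO UNC0638 library, not drawn here, the KO median was 0.05 for the 715 genes of the longest bin. It was 0.004 for the 1694 genes under 1000 bases.

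Several other genes, named here after their values were seen, also rose in KO. Pkp2, a desmosomal plakophilin (chr16:16213318-16272712, plus strand), stood at 381, 351 and 414 in KO DMSO and 731, 1233 and 1024 in KO UNC0638, a log2 difference of 1.35 (SE 0.19, limma adjusted p = 0.00863), with 1.06 (SE 0.19) in WT. Gpx2, a glutathione peroxidase of epithelia (chr12:76792333-76795554, minus strand), was at 101, 75.4 and 81.3 and then at 338, 359 and 550.1, a log2 difference of 2.24 (SE 0.33, limma adjusted p = 0.0120), with 1.33 (SE 0.33) in WT. Baz1a, a subunit of chromatin remodelling complexes, was at 72.4, 54.0 and 54.6 and then at 193, 241 and 185, and En2, a homeobox gene of the midbrain and hindbrain, at 45.0, 95.8 and 37.1 and then at 189, 246 and 284. In these 4 genes the KO and WT responses had the same direction and the 95% interval of their difference included 0, the widest running from -0.26 to 1.92 for En2.

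The 9 genes called lower held Majin, Cntn2, Nptxr, Reep6, Zc3h3, the processed pseudogenes Gm5540, Gm12715 and Gm8399, and Gm25241. Majin, which tethers meiotic telomeres to the nuclear envelope (chr19:6184388-6224225, plus strand), stood at 12.7, 17.3 and 11.6 in KO DMSO and had 0 reads in the 3 KO UNC0638 libraries, at least 14.6-fold lower by a floor of 3 reads over the group (limma adjusted p = 0.0358). Its WT values were 9.31, 11.1 and 8.74 with DMSO and 11.4, 2.80 and 7.98 with UNC0638, which overlap. It was the 1 gene called on the list of 52 germline and meiosis genes, of which 34 were tested, and its direction was opposite to that of the germline genes above. The median log2 difference over the 34 was 0.21 in KO. Cntn2, an axonal adhesion molecule, fell from 102, 157 and 132 to 51.5, 36.6 and 55.0, a log2 difference of -1.43 (SE 0.29, limma adjusted p = 0.0385). Cntn2, Nptxr and Gm5540 belonged to the class DMSO UP.

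Gm12715 was the most abundant of the 9, at 18474, 18803 and 18814 in KO DMSO and 10340, 8104 and 7778 in KO UNC0638, a log2 difference of -1.11 (SE 0.21, limma adjusted p = 0.0362), beside -0.73 (SE 0.21) in WT. Gm8399 (chr13:81064684-81065800) and Gm25241 (chr13:81065477-81065560), annotated as a miRNA gene, overlap on the same strand, so they may share reads and are not independent; their log2 differences were -1.02 and -1.07. The WT log2 differences of these 3 genes lay between -0.74 and -0.72. Multi-mapping reads had been placed at random, and whether Gm12715, on chromosome 4, shares reads with Gm8399 and Gm25241 was not tested.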

How the data were processed

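PolyA RNA-seq of 12 libraries was used: 3 each of WT and Dppa4 KO mESCs with DMSO or UNC0638 for 48 h. The deposited values for this experiment are a signal, gene and repeat-family read counts that the authors divided by size factors (per the submitters' processing notes Trim Galore 0.6.7, STAR 2.7.10, mm10, R 4.1.0 and DESeq2 1.34.0). Multi-mapping reads had been kept, with a single place drawn at random. Values came out as whole reads once multiplied by a size factor found per library (100% within 0.001 of a read). The authors' group means of the dTAG and sorted libraries (normalized counts) and their class table were used as deposited; the authors' tables of fold changes and p-values for their dTAG, recovery and sorted-cell comparisons were not used. Genes kept by filterByExpr (edgeR 4.0.16) on recovered reads were tested with limma 3.58.1 (R 4.3.3; trend) on log2(normalized count + 1) over 4 groups; 781 of 1146 repeat families were adjusted separately. Fits were tested on simulated data. Coordinates are GENCODE vM21 (GRCm38, the mm10 build). Where groups had 3 reads or fewer, bounds or exact conditional intervals were used, which cover counting error only.

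The members and gene lists were chosen with earlier results of these data known. Named genes were up to 15 called highest and 15 lowest with a mean of at least 10 and no overlap (15 and 9), called list members and up to 4 others a list, the targets and 2-cell markers, and set repeat families; other called genes (Pkp2, Gpx2, Aim2, Il11 and the like) are named after their values were seen. The clones were treated as replicates; p-values measure the spread between these samples. Alternatives were edgeR, DESeq2 1.42.0, TMM scaling, pseudocounts of 0.5 and 5, other filters and thresholds, KO libraries alone, a replicate block and leaving out each library; list medians were added after seeing the data. Deviations of same-numbered libraries from their group means correlated at 0.25, 0.10 and 0.43 in WT, each over 0.1, and at 0.15, -0.09 and 0.01 in KO; the labels do not give a pairing.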

Additional observations from a re-analysis of the deposited data

How the results depend on the processing

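In KO, the 71 genes called higher kept their direction under every alternative in which they were tested; 71 were called with TMM scaling, 70 and 68 with pseudocounts of 0.5 and 5, and 50 with a mean of at least 20. Higher and lower calls were 32 and 5 with edgeR, 241 and 44 with DESeq2, 12 and 0 without an expression filter, 4 and 0 at an adjusted p under 0.01, and 0 and 0 with the KO libraries alone; 14 were lower without a fold threshold. Leaving out 1 library gave 2 to 203 higher and 0 to 162 lower. The replicate block, pairing equal numbers within a line, gave 131 and 24 and shared 70 of the 71 and all 9; same-numbered libraries correlated in their deviations from the group means at 0.15, -0.09 and 0.01 in KO and at 0.25, 0.10 and 0.43 in WT, so the numbers were not taken to pair the KO libraries, while in WT each pair was over 0.1. In WT, DESeq2 called 13 higher and 1 lower, leaving out 1 library gave 0 to 1 higher, and 3 repeat families were higher with the replicate block and 0 to 4 with 1 library left out. For KO minus WT, 0 to 1 gene was lower with 1 library left out. DESeq2 called 1 repeat family higher in KO. The causes were not tested. Low levels in KO DMSO, 8 of the 71 genes being at 0 reads, limit what a fold can say.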

Other observations

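The other gene lists gave few calls in KO. Enzymes of cholesterol synthesis had 25 of 26 genes tested, none called at the fold threshold, and a median log2 difference of 0.18 in KO and 0.20 in WT. Cyp51, the lanosterol demethylase, stood at 589, 650.1 and 464 in KO DMSO and 925, 1054 and 1087 in KO UNC0638, a log2 difference of 0.86 (SE 0.17, limma adjusted p = 0.0385). The 14 genes of H3K9 methylation and demethylation had a median of -0.38 in KO and 0.03 in WT with none called. The KO median ran from -0.43 to -0.28 with 1 library left out. Of the 14, 7 were lower at an unadjusted p under 0.05 (limma), among them the demethylases Kdm1a and Phf8. Over all genes 1206 of 17258 were lower at that p. The 20 genes of naive pluripotency had none called and a median of -0.16. Esrrb, a nuclear receptor of the naive state, stood at 16865, 16528 and 14883 in KO DMSO and at 12972, 10754 and 9686 in KO UNC0638, without overlap and without passing the adjustment (limma adjusted p = 0.113).

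Of the PRAME-like list, Pramel6 was called among 7 tested. In the lists of the PRC1.6 complex, the EHMT complex, DNA methylation enzymes, formative and primed genes, germ layer genes, trophoblast genes, imprinted genes, interferon response, lysosome, p53 targets, integrated stress response, immediate early genes and clustered protocadherins no gene was called, and their KO medians ran from -0.32 to 0.35. Aim2, a cytosolic DNA sensor on chromosome 1 that is on none of the lists, was called higher, from 6.85, 4.08 and 0 to 42.3, 43.0 and 34.1 (log2 difference 3.57, SE 0.68, limma adjusted p = 0.0362), with a log2 difference of 2.13 (SE 0.68) in WT. Il11, a cytokine gene, rose from 1.96, 10.2 and 3.48 to 26.7, 29.0 and 34.9 (log2 difference 2.55, SE 0.52, limma adjusted p = 0.0398). Platr14, a non-coding transcript of pluripotent cells, rose from 47.9, 82.5 and 82.4 to 155, 301 and 197 (log2 difference 1.59, SE 0.29, limma adjusted p = 0.0318).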
